A study of Mus musculus with 6 samples.

Results

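The genes described here encode the chaperones and proteases that fold, repair and remove proteins in the mitochondria, measured in the aorta of mice without miRNA-26b. The 9 genes (Hspd1, Hspe1, Hspa9, Grpel1, Trap1, Lonp1, Clpp, Clpx and Yme1l1) were chosen by name from the 55341 rows of the count table. All 9 were found, and all 9 were among the 16017 genes that passed the filter on low counts. The choice was made with the difference between the genotypes already known for these libraries, so that difference is given for the members as a description without a p-value.

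RNA was sequenced from 3 miRNA-26b-/- mice (libraries M2626, M2627 and M2628) and 3 miRNA-26b+/+ mice (M2629, M2630 and M2631), 1 library per mouse, at 8 weeks of age on chow diet. The labels give the strain of all mice as C57BL/6NCrl, while the methods describe targeting in R1/E (129/Sv) embryonic stem cells from more than 1 clone and crossing to C57BL/6. In the miRNA-26b-/- mice a stretch of 160 bp holding the miRNA-26b gene within intron 4 of Ctdsp1 was removed from loxP sites by a tamoxifen-inducible Cre recombinase, and the Cre allele was later bred out. The labels call the samples aortic endothelial cells, whereas the methods describe explanted aortic arch and thoracic aorta. Markers of vascular smooth muscle were far above those of endothelium in every library (summed over 6 genes each, 30538 to 41119 against 384 to 1583 CPM, counts scaled to an equal total per library), so the libraries are treated as whole aortic wall.

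Nearly all mitochondrial proteins are made in the cytosol and enter the organelle unfolded. Inside the matrix, mitochondrial HSP70 pulls them in, the HSP60 and HSP10 chaperonin encloses and folds them, and the mitochondrial HSP90 acts on selected clients. Proteins that stay misfolded are degraded by ATP-driven proteases, and an overload of these systems is known to raise transcription of their own genes, the mitochondrial unfolded protein response. Arterial smooth muscle, the main cell of the aortic media, depends on this machinery for its respiratory chain.

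Between 25706728 and 33345037 counts were assigned to genes in a library, and counts were scaled to CPM with factors of 0.982 to 1.02 by TMM, which corrects for differences in composition. Mir26b, the row of the targeted hairpin, had 0 counts in every miRNA-26b-/- library and 0, 20 and 0 counts in M2629, M2630 and M2631, so at this library type its count checks the genotype in 1 library only. The host gene Ctdsp1, at 201, 182 and 182 against 148, 166 and 180 CPM, was higher in all 3 miRNA-26b-/- libraries by a narrow gap (log2 fold change 0.20 ± 0.15, SE; adjusted p = 0.866 with edgeR). M2628 held the lowest value of 6 of the 9 members and the fewest detected genes (17744 against up to 19287). M2626 and M2627 had low summed endothelial markers (384 and 415 CPM against 1098 to 1583 in the other 4 libraries). Kdr of the endothelial list differed from this sum. It was lowest in M2628 (8.83 CPM), the library with the highest sum. In M2626 and M2627 (22.04 and 29.66 CPM) it lay within the range of the miRNA-26b+/+ libraries. Summed markers of heart muscle were highest in M2627 and M2630 (326 and 358 CPM against at most 142), and those of sympathetic neurons in M2627 (226 CPM against at most 48.7). Markers of brown adipocytes, cells rich in mitochondria, overlapped between the genotypes (221 to 493 against 155 to 421 CPM summed over 6 genes, with Elovl3 at 0 in M2628 and M2631).

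Hspd1 and Hspe1, which encode HSP60 and HSP10, are neighbours read in opposite directions from a shared promoter. In GENCODE M21 on GRCm38, Hspd1 (ENSMUSG00000025980) lies on the reverse strand of chromosome 1 from 55077835 to 55088243 and Hspe1 (ENSMUSG00000073676) on the forward strand from 55088132 to 55091307. The annotated genes overlap by 112 bases. RefSeq promoter windows, 250 bases before to 50 bases after a start site, were given for 8 of the 9 members, with Hspa9 missing. They were searched on both strands for the heat shock element, the binding motif of heat shock factors, which is built of alternating GAA and TTC units. A run of 4 such units (GAA and TTC in turn, each separated from the next by 2 free bases, starting with either) was found in 8 of 32851 mouse promoter windows (0.0244%), and the windows of Hspd1 and Hspe1 were among them because they share 1 element. The window of Hspe1, on the forward strand at chr1:55087898-55088197 of GRCm38.p6, is printed because this element is the sequence feature that joins both genes, and it is in capitals.

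Hspe1 promoter: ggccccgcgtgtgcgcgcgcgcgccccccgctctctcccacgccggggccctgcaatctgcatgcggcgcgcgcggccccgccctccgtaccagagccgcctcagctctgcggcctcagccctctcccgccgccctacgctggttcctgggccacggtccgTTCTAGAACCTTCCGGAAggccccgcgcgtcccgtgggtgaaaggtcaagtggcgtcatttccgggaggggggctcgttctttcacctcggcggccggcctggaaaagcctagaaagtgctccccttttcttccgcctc

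The 18-base element lies at chr1:55088059-55088076. It starts 89 bases upstream of the RefSeq start of Hspe1 and, on the other strand, 144 bases upstream of the nearer of the RefSeq starts of Hspd1 at 55087932. Among the Hspd1 transcripts in GENCODE, it is upstream of the first exon of 1, in the first exon of another and in the first intron of the third. No other member held a run of 3 or more units (the same spacing, found in 0.603% of all windows), and Clpp held a single pair (TTCNNGAA, in 8.52% of all windows). CCAAT, bound by NF-Y, was found in 4 members (37.4% of all windows). The NRF1 motif (GCGC, AT and GCGC in a row, 0.971% of all windows) and the ATF4 and C/EBP motif TGATGCAAT (0.192%) were found in 0 of the 8 members. These are matches of letters in a fixed window and were not tested for binding.

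The deleted miRNA is shown with its relative miR-26a, since a target site in a member would be read by both. The mature RefSeq sequences carry the seed, bases 2 to 8, in capitals.

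mmu-miR-26b-5p: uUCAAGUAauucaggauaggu
mmu-miR-26a-5p: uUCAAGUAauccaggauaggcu

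The seeds of miR-26b-5p and miR-26a-5p are identical. The longest annotated 3′ UTR of each member was searched for the complement of this seed, with or without the flanking A (TACTTGAA, TACTTGA or ACTTGAA, on the transcript strand). Of the 9 members only Grpel1 held a site, of the 8-base form, against 4.19% of 21020 genes with this form and 18.3% with any form. The site is printed with its flanks and in capitals. It lies at bases 2584 to 2591 of a 3′ UTR of 2678 bases.

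Grpel1 site: aacaatattaaTACTTGAAcataaattaat

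Of the 9 members, 8 had a lower mean in miRNA-26b-/- than in miRNA-26b+/+ aortas, and Hspd1 had the largest difference in either direction. The median log2 fold change (miRNA-26b-/- minus miRNA-26b+/+) was -0.10 for the members and 0.01 for all 16017 genes, of which 48.6% were below 0. Without M2628 only Hspd1, Hspa9 and Lonp1, 3 of 9 members, were lower, and the members' median was 0.03, so this library carried the direction of the other 5. Since the contrast was known when the members were chosen, counts of calls are given beside the share of all genes and are read as no test of the members. With edgeR's quasi-likelihood test, 0 of 9 members passed an adjusted p-value of 0.05 (1 gene of all, 0.00624%) and 1 of 9 an unadjusted one (6.47% of all genes in both directions and 3.07% in the lower direction). The CPM of the genotypes did not overlap for 1 of 9 members, Hspd1, against 11.5% of all genes. DESeq2 and limma voom gave the same counts of 1 and 0 members. In bulk tissue, fewer cells of a type and less RNA per cell cannot be told apart.

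**Figure D1:**
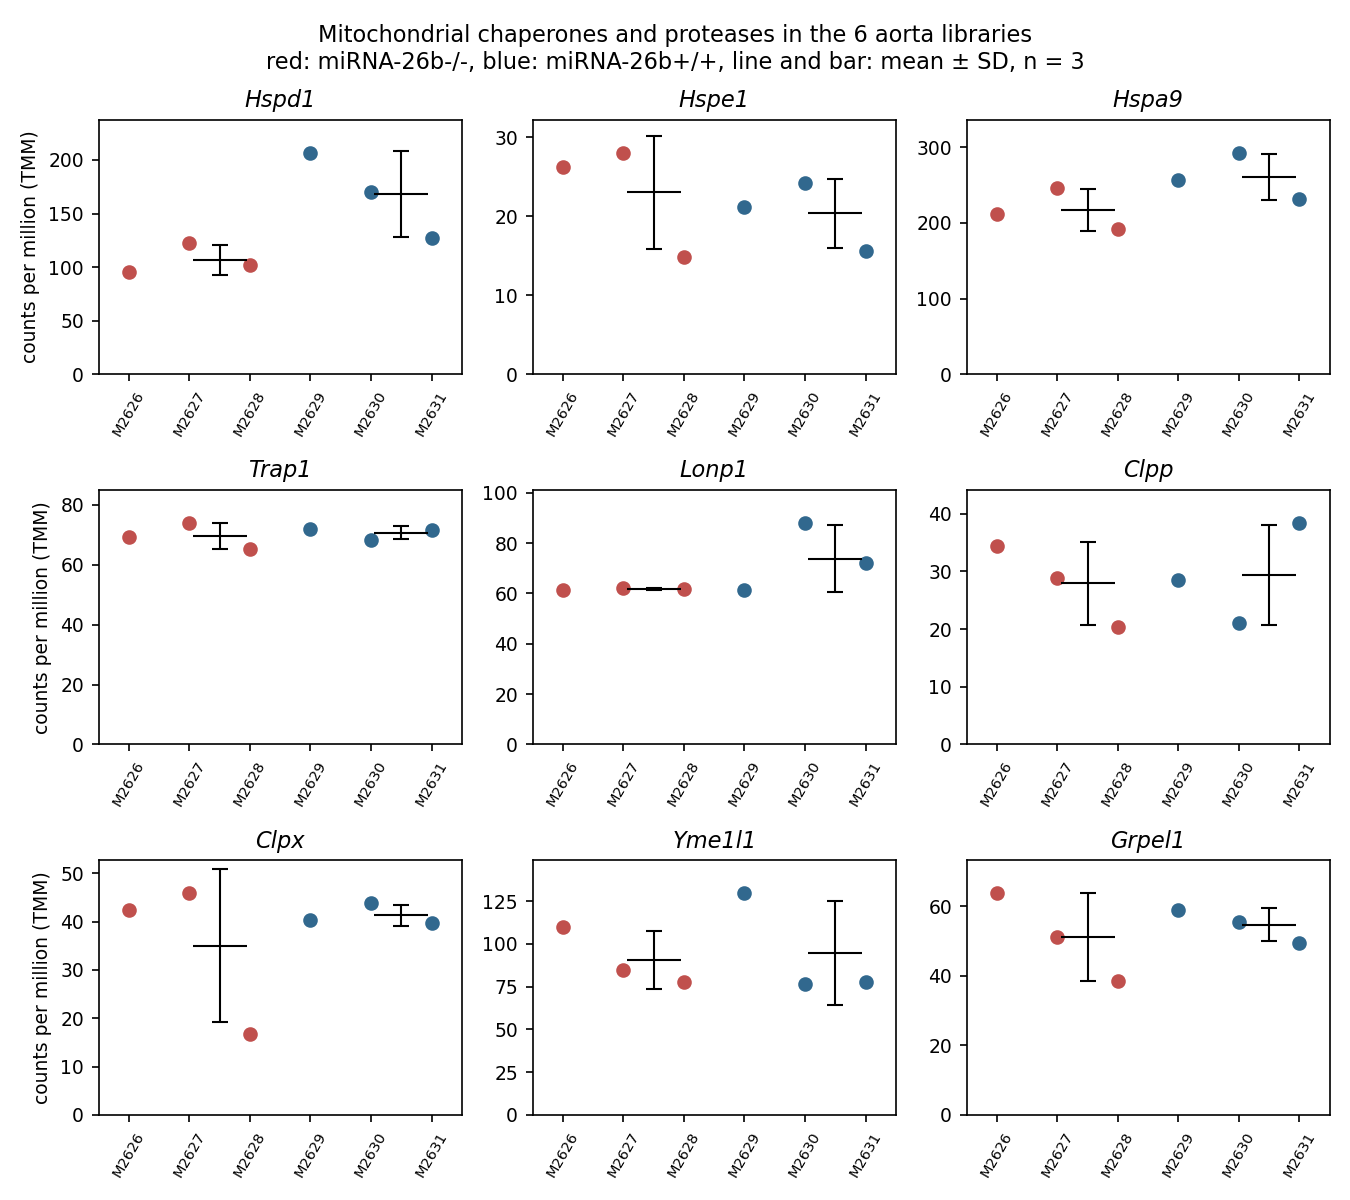
TMM-scaled CPM of the 9 genes (vertical axes from 0) in the 3 miRNA-26b-/- libraries (red) and the 3 miRNA-26b+/+ libraries (blue), with mean ± SD of each genotype. Only for Hspd1 do all 3 red points lie below all 3 blue points; Trap1 is nearly level, and M2628 is lowest for 6 genes.

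Hspd1, the HSP60 subunit that forms the folding chamber of the matrix, measured 95.7 CPM in M2626, 122.0 CPM in M2627 and 101.7 CPM in M2628, the miRNA-26b-/- mice. It measured 206.7 CPM in M2629, 170.3 CPM in M2630 and 126.8 CPM in M2631, the miRNA-26b+/+ mice. All 3 miRNA-26b-/- libraries were below all 3 miRNA-26b+/+ libraries, with a narrow gap between M2627 and M2631 and a wide spread within the miRNA-26b+/+ mice. The means were 106 ± 13.8 and 168 ± 40.0 CPM (SD, n = 3 each). The log2 fold change was -0.65 ± 0.19 (SE), a 1.57-fold lower level.

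The lower Hspd1 level was not tied to a single library. Its log2 fold change, recomputed without 1 library at a time, ran from -0.83 to -0.48. The 6 endothelial markers summed to 384, 415 and 1583 CPM in M2626, M2627 and M2628 against 1098 to 1508 CPM in miRNA-26b+/+ aortas, with 1 of 6 lower at an unadjusted p-value under 0.05, and their part in the Hspd1 difference was not tested. The same holds for 1 of 6 smooth muscle markers that was lower and 2 of 4 tested sympathetic neuron markers that were higher at that threshold. The sympathetic neuron markers summed to 8.01, 226 and 7.98 CPM in miRNA-26b-/- against 9.17, 48.7 and 22.0 CPM in miRNA-26b+/+ libraries. In these sums only M2627 was above the miRNA-26b+/+ libraries, and M2626 and M2628 were below all of them. Of the 5 tested Schwann cell markers, all 5 were higher in miRNA-26b-/- aortas at an unadjusted p-value under 0.05 (summed over 6 markers, 300 to 455 against 215 to 279 CPM, with Mag at 0 in some libraries), and their part in the Hspd1 difference was not tested. The 5 tested fast skeletal muscle markers were low everywhere, at 8.40 to 83.3 against 2.18 to 11.2 CPM summed, with 4 of 5 higher in miRNA-26b-/- at an unadjusted p-value under 0.05, and their part was not tested either.

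Hspe1 encodes HSP10, the lid that closes the HSP60 chamber. It measured 26.2, 28.0 and 14.8 CPM in miRNA-26b-/- against 21.2, 24.2 and 15.6 CPM in miRNA-26b+/+ aortas. The genotypes overlapped fully, with the lowest and the highest of the 6 values both in miRNA-26b-/- mice. The log2 fold change was 0.19 ± 0.31 (SE), the only one of the 9 above 0.

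The ratio between the 2 chaperonin genes was lower in every miRNA-26b-/- library. Per kilobase of exon, Hspd1 was 2.04, 2.43 and 3.84 times Hspe1 in miRNA-26b-/- against 5.43, 3.93 and 4.53 times Hspe1 in miRNA-26b+/+ libraries. The ranges did not overlap, although M2628 came close to M2630. The difference in the log2 ratio was -0.78, and -1.05 to -0.59 with 1 library left out. Since this ratio contains the Hspd1 values that already separated the genotypes, it adds no independent support.

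Both counts have limits of mapping, and whether these differ between the genotypes was not tested. Of the 50-base stretches of the longest coding Hspd1 and Hspe1 transcripts, 44.8% each also occur in other annotated genes, among them pseudogenes. Reads that map to several places were not counted. Reads over the 112 bases shared by Hspd1 and Hspe1 were counted for both, without regard to strand. Counts of the rows named as pseudogenes were low. Summed within a library, they were at most 99 for the 5 rows of Hspd1 and at most 1 for the 6 of Hspe1. Reads that fit both a parent and a copy are missing from either row, so these counts do not show what the parents lost. Other genes that share the stretches were not summed. The ratio between the genes is therefore not a ratio of molecules.

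**Figure D2:**
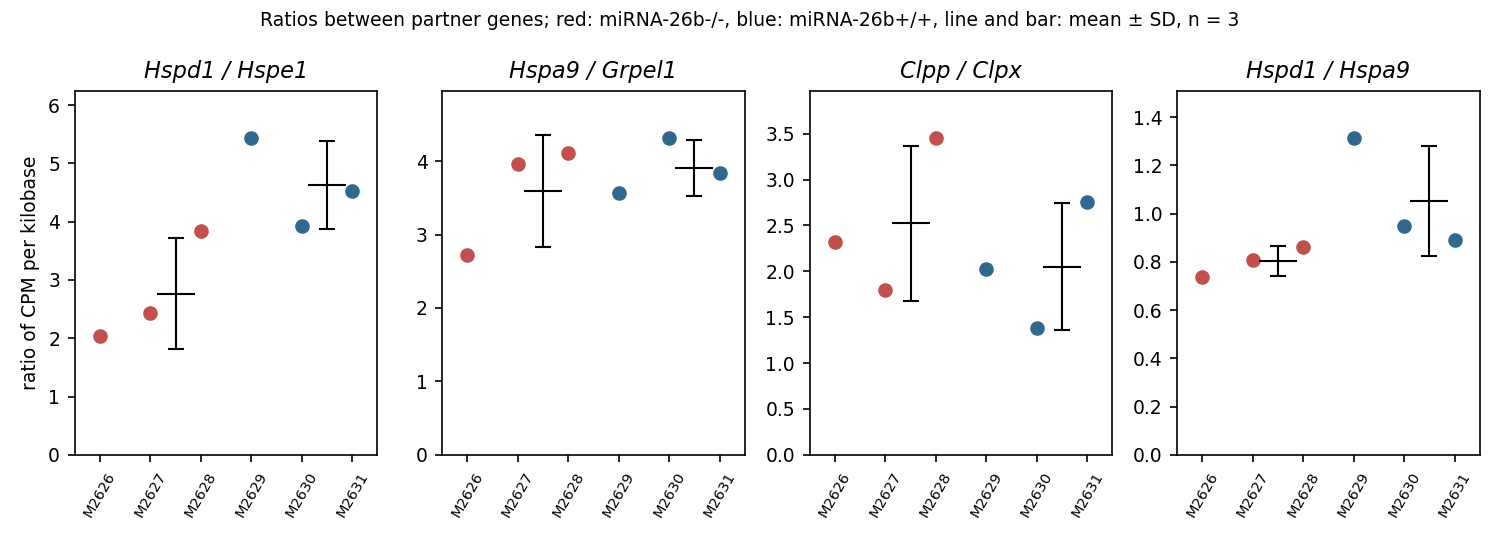
Ratios of CPM per kilobase between partner genes (vertical axes from 0) in each library, miRNA-26b-/- in red and miRNA-26b+/+ in blue, with mean ± SD (n = 3). The ratios of Hspd1 to Hspe1 (2.04 to 3.84 against 3.93 to 5.43) and of Hspd1 to Hspa9 separate the genotypes, while Hspa9 to Grpel1 and Clpp to Clpx overlap. Both ratios that separate contain the Hspd1 values, which separate the genotypes by themselves.

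Hspa9 encodes mortalin, the mitochondrial HSP70 that drives import and first folding. It measured 211.5, 246.7 and 192.3 CPM in miRNA-26b-/- against 256.7, 292.7 and 231.8 CPM in miRNA-26b+/+ aortas. The miRNA-26b+/+ values were mostly higher, but M2627 exceeded M2631, so the genotypes overlapped. The log2 fold change was -0.26 ± 0.15 (SE), and -0.37 to -0.16 with 1 library left out. Hspd1 relative to Hspa9, per kilobase, was 0.738, 0.807 and 0.863 against 1.31, 0.949 and 0.893, lower in all 3 miRNA-26b-/- libraries. This ratio also contains the Hspd1 values that already separated the genotypes, so it adds no independent support.

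Grpel1, the nucleotide exchange factor that resets mortalin between cycles, measured 63.7, 51.0 and 38.3 CPM in miRNA-26b-/- against 58.8, 55.5 and 49.4 CPM in miRNA-26b+/+ aortas. Both the highest and the lowest value were in miRNA-26b-/- mice. The log2 fold change of this only member with a miR-26 site was -0.10 ± 0.21 (SE), with the sign turning to 0.06 without M2628. Grpel1 shares 411 exonic bases with Tada2b on the other strand, and reads there were counted for both. The ratio of Hspa9 to Grpel1 per kilobase was 2.72 to 4.11 in miRNA-26b-/- and 3.57 to 4.31 in miRNA-26b+/+ libraries.

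Trap1, the HSP90 of mitochondria, was the most even member. It measured 69.3, 73.8 and 65.3 CPM in miRNA-26b-/- against 72.0, 68.1 and 71.7 CPM in miRNA-26b+/+ aortas, a coefficient of variation of 4.43% over the 6 libraries. The miRNA-26b+/+ values lay within the range of the miRNA-26b-/- values, with a log2 fold change of -0.02 ± 0.17 (SE).

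Lonp1, the matrix protease that removes oxidised and misfolded proteins, measured 61.4, 62.3 and 61.8 CPM in miRNA-26b-/- aortas. In miRNA-26b+/+ aortas it measured 61.3, 87.9 and 72.1 CPM. The miRNA-26b-/- mice were almost identical, and M2629 sat at their level while M2630 and M2631 were above it. The means of 61.8 ± 0.456 and 73.8 ± 13.4 CPM (SD, n = 3 each) gave a log2 fold change of -0.25 ± 0.19 (SE).

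Clpp and Clpx encode the proteolytic barrel of a matrix protease and the unfoldase that feeds it. Clpp measured 34.5, 28.9 and 20.3 CPM in miRNA-26b-/- against 28.6, 21.1 and 38.4 CPM in miRNA-26b+/+ aortas. Clpx measured 42.4, 45.8 and 16.8 CPM in miRNA-26b-/- against 40.3, 43.8 and 39.8 CPM in miRNA-26b+/+ aortas. Clpx was thus even in 5 libraries and low in M2628 alone, the widest range of any member at 2.73-fold. Its log2 fold change of -0.23 ± 0.29 (SE) became 0.10 without that library, and that of Clpp (-0.08 ± 0.28, SE) became 0.09. The ratio of Clpp to Clpx per kilobase ran from 1.80 to 3.45 in miRNA-26b-/- and from 1.38 to 2.75 in miRNA-26b+/+ libraries.

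Yme1l1, the AAA protease of the inner membrane that faces the intermembrane space and processes OPA1, measured 110.0, 84.6 and 77.7 CPM in miRNA-26b-/- aortas. In miRNA-26b+/+ aortas it measured 129.6, 76.7 and 77.8 CPM. One mouse of each genotype was high, M2626 and M2629, and the other 4 values lay close together. The log2 fold change was -0.07 ± 0.22 (SE), with the sign turning to 0.23 without M2629.

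The spread between mice was described for each member over both genotypes. The coefficients of variation over the 6 libraries ran from 4.43% (Trap1) to 31.3% (Hspd1), with a median of 23.8%. The median was 17.4% (quartiles 13.0% and 23.4%) for the 6508 genes between 21.7 and 239 CPM, the range of the members' means, and 28.6% for all genes tested. This comparison is a description and was not tested.

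Levels of different genes were compared per kilobase of exon, with the gene lengths of the count table. Hspa9 (55.4 ± 8.20 CPM per kilobase, SD over 6 libraries) and Hspd1 (51.9 ± 16.3) were the most abundant members. Within a library, Hspd1 was 0.738 to 0.949 times Hspa9 except in M2629, where it was 1.31 times Hspa9. Of the 50-base stretches of their longest coding transcripts, 44.8% for Hspd1 and 4.1% for Hspa9 also occur in other genes. The effect of this on their order was not tested. Below this pair came a clear step, since the lowest Hspd1 value (36.2) was above the highest of Trap1 (28.7). Trap1 (27.2 ± 1.21) and Clpp (23.4 ± 5.83) overlapped, as did Clpp and Lonp1 (15.5 ± 2.45).

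Lonp1, Grpel1 (15.0 ± 2.49), Hspe1 (14.7 ± 3.74), Yme1l1 (11.6 ± 2.75) and Clpx (10.9 ± 3.06 CPM per kilobase) each overlapped with the next in this order. The length used for Hspe1, 1474 bases over all its exons, exceeds its longest coding transcript of 774 bases, so its level per kilobase is set low by the annotation. The lengths used for Yme1l1 (8009 against 4707 bases), Lonp1 (4374 against 2951) and Hspa9 (4310 against 3049) also exceed those of their longest coding transcripts. By contrast those of Trap1 (2573 against 2320 bases) and Hspd1 (2642 against 2423) are near them. The order of the genes per kilobase therefore depends on the lengths used.

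**Figure D3:**
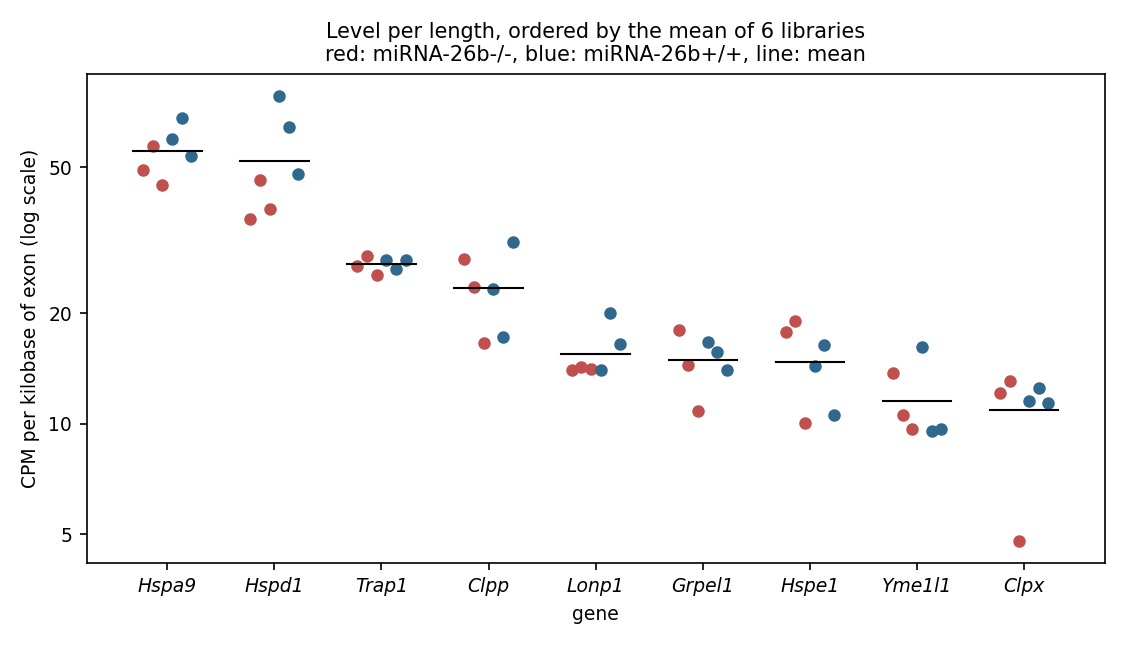
CPM per kilobase of exon on a log axis for each gene, ordered by the mean over 6 libraries (line), with miRNA-26b-/- libraries in red and miRNA-26b+/+ libraries in blue. Hspa9 and Hspd1 form an upper pair above 36 CPM per kilobase, and the remaining genes overlap their neighbours in the order.

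Genes that work with the members were described by lists fixed with the members, which were chosen with earlier results of these libraries known. In every list, 0 genes had an adjusted p-value under 0.05 with edgeR's quasi-likelihood test, and the same count held with DESeq2 and limma voom except in the cytosolic heat shock list. Among 10 tested co-chaperones and folding factors, 7 were below 0 and the median log2 fold change was -0.08. An unadjusted p-value under 0.05 was found for 1 of them, Pam16, a regulator of the import motor, at 13.5 ± 2.76 against 7.19 ± 2.30 CPM (SD, n = 3 each), higher in miRNA-26b-/-, against 6.47% of all genes at this threshold. This was lost with DESeq2 (log2 fold change 0.91 against 0.89 with edgeR) and without M2626 (0.73), M2627 (0.91), M2629 (0.79) or M2630 (0.74). The most abundant, Dnaja3, the J-domain partner of mortalin, measured 41.5 ± 5.16 against 54.9 ± 13.0 CPM.

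Of 17 other mitochondrial proteases and their scaffolds, 12 were below 0, with a median log2 fold change of -0.16. Parl, the rhomboid protease of the inner membrane, was the only one with an unadjusted p-value under 0.05, at 25.2 ± 6.49 against 14.5 ± 4.54 CPM (log2 fold change 0.80 ± 0.32, SE; adjusted p = 0.736 with edgeR), near the 6.47% of all genes. Without M2626 (0.58), M2629 (0.62) or M2631 (0.72) it no longer passed. Phb2, a prohibitin that scaffolds the inner membrane proteases, was the most abundant at 57.8 ± 9.28 against 64.1 ± 3.67 CPM. Of the 19 genes of the import machinery, 7 were below 0 and 12 above, with a median of 0.08 and 0 genes at an unadjusted p-value under 0.05. Tomm70a, a receptor of the outer membrane and the most abundant of these, measured 66.1 ± 8.27 against 64.7 ± 13.8 CPM.

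The mitochondrial and integrated stress response showed 0 of 14 tested genes at an unadjusted p-value under 0.05, 5 below 0 and 9 above, with a median log2 fold change of 0.02. Atf5, a transcription factor linked to the mitochondrial unfolded protein response, measured 198 ± 31.1 CPM in miRNA-26b-/- against 198 ± 16.7 CPM in miRNA-26b+/+ aortas. Asns, the asparagine synthetase induced by ATF4, had the smallest p-value of the list, at 11.4, 13.3 and 6.81 against 4.11, 8.56 and 3.14 CPM with overlapping genotypes.

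Among 12 genes of mitochondrial mass and biogenesis, 8 were below 0 and the median was -0.12. Atp5b, a subunit of ATP synthase, measured 603, 890 and 518 CPM in miRNA-26b-/- against 751, 860 and 616 CPM in miRNA-26b+/+ aortas, highest in M2627 and M2630. These libraries were also highest in the summed markers of heart muscle and of brown adipocytes (493 and 421 CPM against at most 290). The same was so for adipocyte markers (2463 and 1651 CPM against at most 1160). Single markers could differ from these sums. Ryr2 of the heart muscle list was lowest in M2627 (74.0 CPM), and Dio2 of the brown adipocyte list was highest in M2628 (151 CPM). The part of these cells in the Atp5b level was not tested. Ppargc1b, a coactivator of mitochondrial biogenesis, was low in all libraries at 1.48 ± 0.425 against 5.56 ± 2.68 CPM and was the only one of the list with an unadjusted p-value under 0.05 (adjusted p = 0.736 with edgeR), against 6.47% of all genes. Its log2 fold change of -1.85 no longer passed with limma voom (-1.74), without M2626 (-1.72) or without M2630 (-1.46).

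The lowest median of the 6 lists was that of genes acting outside the mitochondria. Of 11 cytosolic heat shock genes, 10 were below 0 with a median log2 fold change of -0.64, against 0.01 for all genes. An unadjusted p-value under 0.05 in the lower direction was found for 6 of 11 (3.07% of all genes), and 7 of 11 had genotypes that did not overlap, all lower (11.5% of all genes in both directions). Since this list too was chosen with earlier results of these libraries known, these counts are read as no test of the list. After adjustment the count of the list was 0 with edgeR, 4 with DESeq2 (Hspb1, Hspa4l, Hspa8 and Hsph1), 1 with limma voom (Hspb1) and 3 with edgeR without M2628 (Hspb1, Hspa4l and Hspa8). Hspb1, the small heat shock protein HSP27, measured 171, 147 and 177 against 289, 335 and 319 CPM (log2 fold change -0.93 ± 0.14, SE; adjusted p = 0.0822 with edgeR). Hspa8, the constitutive HSP70 and the most abundant of the list, measured 750, 583 and 893 against 1138, 1239 and 1143 CPM (adjusted p = 0.640 with edgeR).

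The remaining 4 were Hspa4l, Hsph1, Hsp90aa1 and Bag3. Their log2 fold changes were -1.04 for Hspa4l and -0.65 for Hsph1, both HSP110 relatives, -0.59 for Hsp90aa1, the inducible HSP90, and -0.41 for the co-chaperone Bag3. Bag3 no longer had an unadjusted p-value under 0.05 without M2627 (-0.36), M2628 (-0.38) or M2629 (-0.25). The inducible Hspa1a, at 54.2, 46.3 and 131 against 217, 109 and 52.4 CPM, overlapped between the genotypes. Of the 8 genes of this list with a promoter window, Hsph1 alone held a run of 3 heat shock units, and 0 held a run of 4 as in the window shared by Hspd1 and Hspe1.

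**Figure D4:**
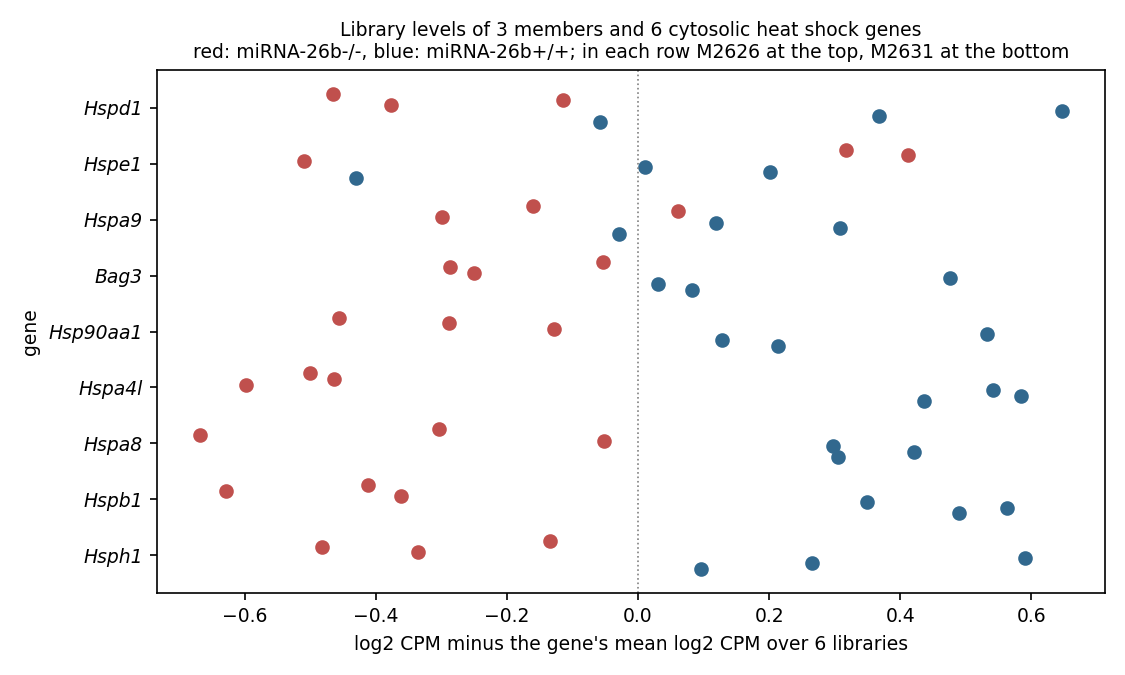
Log2 CPM of each library minus the mean over 6 libraries for Hspd1, Hspe1, Hspa9 and the 6 cytosolic heat shock genes with an unadjusted p-value under 0.05, miRNA-26b-/- in red and miRNA-26b+/+ in blue. Hspd1 and the 6 cytosolic genes separate the genotypes, while Hspe1 and Hspa9 do not. The 6 cytosolic genes were picked by that p-value in the same contrast, so their separation is largely set by the choice and adds no support. Other genes of the list are not shown, among them Hspa1a, which overlaps between the genotypes.

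**Figure D5:**
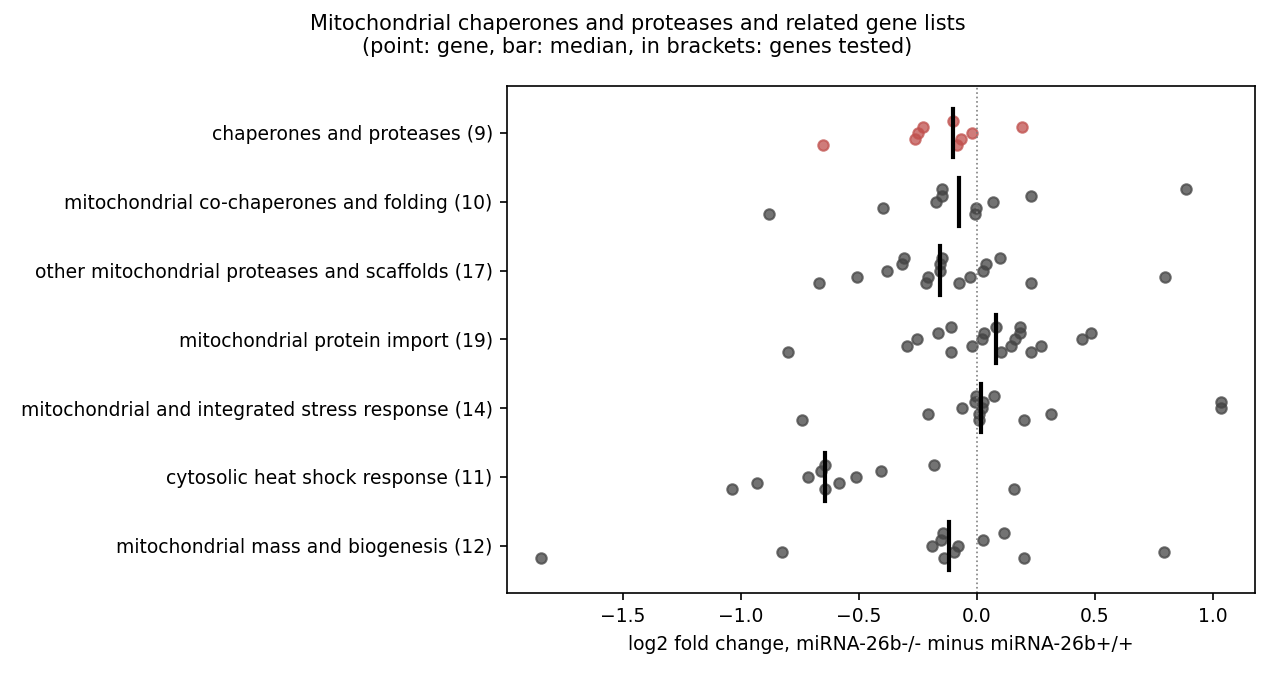
Log2 fold change (miRNA-26b-/- minus miRNA-26b+/+) of each tested gene in the chaperones and proteases (red) and in 6 related lists (grey), with the median as a bar. The cytosolic heat shock list has its median at -0.64, and the medians of the 6 other groups lie between -0.16 and 0.08.

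The pattern of Hspd1 over the 6 libraries was compared with the 9767 genes of at least 10 CPM on average. Pearson's r of log2 CPM is given as a description over libraries of both genotypes, so it includes the difference between them. The most alike were Gm17509 and Coq10b (r = 0.98 each), Ndfip2 (0.98), Ptbp1 (0.97) and Gpr27 (0.96). Of the other members Hspa9 came next at rank 190 (r = 0.81), and Hspe1, its partner in the chaperonin, at rank 4097 (r = 0.12). Coq10b, which encodes a coenzyme Q binding protein of mitochondria, is the next gene on chromosome 1 and ends 5133 bases before the 3′ end of Hspd1. Its log2 fold change was -0.49.

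Hspd1 and Hspe1 lie 19.31 and 19.30 Mb from Mir26b on the targeted chromosome. Of the 101 tested genes between Hspe1 and Mir26b, 5 were lower and 1 higher at an unadjusted p-value under 0.05 (5.94%), against 59 of 953 (6.19%) on the whole chromosome and 6.47% of all genes. In the lower direction the share was 4.95% in the interval, 3.15% on the chromosome (30 lower and 29 higher) and 3.07% of all genes, and these shares were not tested against each other.

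The other members are on other chromosomes of GRCm38. Hspa9 (ENSMUSG00000024359) lies on chromosome 18 from 34937414 to 34954357, Trap1 (ENSMUSG00000005981) on chromosome 16 from 4039971 to 4077827, and Clpx (ENSMUSG00000015357) on chromosome 9 from 65294260 to 65330658. Yme1l1 (ENSMUSG00000026775) lies on chromosome 2 from 23156369 to 23199260 and Grpel1 (ENSMUSG00000029198) on chromosome 5 from 36464998 to 36474080. Lonp1 (ENSMUSG00000041168) and Clpp (ENSMUSG00000002660), both proteases of the matrix, lie on chromosome 17 from 56614297 to 56626887 and from 56990305 to 56996188. All 9 are annotated as protein coding, and the counts are over their exons.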

How the data were processed

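The deposited raw read counts per gene name were made by the authors with STAR (GRCm38/mm10) and featureCounts 1.6.4 over exons of GENCODE M21, the release in the file header (the paper names M23). Strand was ignored, a read over more than 1 gene counted for every one of them, and multi-mapping reads were left out. A second deposited table with log2 CPM and the authors' own comparison was not used. The filter required a summed count of 2 or more and over 1 CPM in 2 or more libraries. Counts were scaled by TMM, and differences were tested with edgeR 4.0.16 (quasi-likelihood, prior count 0.125, Benjamini-Hochberg adjustment over 16017 genes) in R 4.3.3. Alternatives were other scalings, DESeq2 1.42.0, limma voom 3.58.1, other filters and leaving out each library. The earlier quasi-likelihood method of edgeR, and leave-one-out values of the overlap and of the Hspd1 to Hspe1 ratio, were added after seeing the data. The ratio of Hspd1 to Hspa9 was not among the ratios planned. The procedure was tested on simulated data. Groups came from the genotype labels. Replicates are separate mice per the methods.

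The members and lists were chosen with earlier results of these data known. Genes named are the members, Mir26b, Ctdsp1, per list those with an unadjusted p-value under 0.05 or else the smallest, the most abundant one, markers, and the 5 genes most like Hspd1. Hspa1a and the pseudogenes were added after their values were seen.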

Additional observations from a re-analysis of the deposited data

How the results depend on the processing

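The log2 fold change of Hspd1 ran from -0.83 to -0.48 over its 14 alternatives. Of 126 alternative log2 fold changes of the members, 119 kept their direction. The sign turned in 7, all with 1 library left out. Without 1 library the values ran from -0.0701 to 0.0221 for Trap1, -0.26 to 0.15 for Clpp, -0.49 to 0.10 for Clpx, -0.23 to 0.23 for Yme1l1 and -0.28 to 0.0614 for Grpel1, the sign turning without M2628 in all 5, also without M2631 for Clpp and without M2629 for Yme1l1. Of 224 values of the other named genes, 192 were unchanged in this sense, 14 lost (Pam16, Parl, Bag3 and Ppargc1b) and 8 gained an unadjusted p-value under 0.05, and 10 turned sign. With 1 library left out, Tomm70a ran from -0.14 to 0.17, Atp5b from -0.41 to 0.0105 and Atf5 from -0.0909 to 0.12. Atf5, near 0, was also 0.0126 by library size, 0.00291 with DESeq2 size factors, 0.00563 with DESeq2 and 0.00393 with no CPM filter.

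The number of genes with an adjusted p-value under 0.05 was 1, and 57 with DESeq2, 3 with limma voom, 0 with edgeR's earlier method and 0 to 82 with 1 library left out (82 without M2628). At an unadjusted p-value under 0.05 it was 1036, and 686 to 1692 with 1 library left out (1692 without M2628, 686 without M2631). Members whose genotypes do not overlap numbered 1, and 1 to 2 with 1 library left out. Groups separate more easily with fewer libraries, so the leave-one-out counts cannot be set against the 11.5% of all genes, which is for 6 libraries. The cytosolic heat shock count of 6 stayed between 5 and 8 in all alternatives. The cause of these shifts was not tested. The members had 417 to 8275 counts per library, and 3 mice per genotype limit the precision, as an exact permutation test of 3 against 3 cannot go below 0.1. No paired analysis was possible because the replicate numbers follow the order of the libraries and pair no mice.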

Other observations

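Some of the annotated pseudogenes of the members had a few counts. The share of parent sequence found in them differs, and of the 50-base stretches of the longest coding Hspa9 transcript 4.1% occur in Hspa9-ps1. Hspd1-ps3 had 43, 51 and 21 counts in miRNA-26b-/- and 68, 57 and 53 counts in miRNA-26b+/+ libraries, lower in all 3 miRNA-26b-/- libraries like its parent gene. Hspd1-ps4 had 29 and 26 counts in M2629 and M2630 and 0 in the other 4 libraries. Hspa9-ps1 had 9, 15 and 10 counts in miRNA-26b-/- and 19 to 29 in miRNA-26b+/+ libraries. Whether these reads come from the pseudogenes or from the parent mRNA was not tested.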
